A study of Mus musculus with 2 samples.

Results

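Mir199a-1, Mir199a-2, Mir199b and Mir214 are 4 microRNA genes that lie within the mouse dynamin genes Dnm1, Dnm2 and Dnm3 and are known from connective tissue cells, including those of the meninges. They were chosen by name from the 2202 microRNA genes of the deposited tables, and all 4 were found there. The samples were the left cerebral cortex of female mice of the B6CASTF1/J strain, a cross of C57BL/6J and CAST/EiJ, at 10 days of age, supplied by The Jackson Laboratory, with no treatment named. The labels number the 2 females separately, although both share a donor entry. They form 1 group of 2 animals (animal 1 and animal 2 by replicate number), with 1 library each. Levels and 1 difference between the libraries could be measured, but no condition could be compared. A difference between the animals cannot be told apart from one between the library preparations.

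A microRNA gene is transcribed into a hairpin, and each side of the hairpin can give a mature microRNA of about the length of a small sequencing read. Bases 2 to 8 of the mature strand, the seed, pair with target messenger RNAs. The mir-199 genes and Mir214 are active in mesenchyme, the tissue that gives rise to bone, cartilage, fibroblasts and the cells of the meninges and vessel walls. Mir199a-2 and Mir214 are made from a shared long noncoding transcript, Dnm3os, which is required for normal growth of the mouse skeleton.

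The mature strands are shown because their likeness decides which gene a read can be assigned to. Sequences are from RefSeq (GRCm38.p6, the same build as mm10), which matched 4 of the 4 genes, and capitals mark the seed.
miR-199a-5p (Mir199a-1 and Mir199a-2): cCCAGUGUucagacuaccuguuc
Matching stretch of the Mir199b hairpin: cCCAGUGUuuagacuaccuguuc
miR-199a-3p and miR-199b-3p: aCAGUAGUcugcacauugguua
miR-214-5p: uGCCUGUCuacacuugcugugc
miR-214-3p: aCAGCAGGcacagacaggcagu
miR-761 (Mir761): gCAGCAGGgugaaacugacaca
miR-199a-5p stood letter for letter in 2 hairpins of the RefSeq set, those of Mir199a-1 and Mir199a-2, and the 3′ strand stood in 3, with Mir199b added. The Mir199b hairpin matched miR-199a-5p in 22 of 23 bases, and the difference was C10U, counted from 1 at the 5′ end with the base of miR-199a-5p first. Its seed is therefore the same. Both mature strands of Mir214 occurred in the Mir214 hairpin only, of 1005 hairpins in the set. Of all mature microRNAs in the set outside these 4 genes, only miR-761 shares one of the seeds, that of miR-214-3p. Sites in a messenger RNA that pair with the seeds read ACACUGG for miR-199-5p, ACUACUG for miR-199-3p, CCUGCUG for miR-214-3p and GACAGGC for miR-214-5p.

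The whole hairpins are printed because the counts belong to hairpin genes and not to arms, with capitals for the mature strands that RefSeq lists.
Mir199a-1: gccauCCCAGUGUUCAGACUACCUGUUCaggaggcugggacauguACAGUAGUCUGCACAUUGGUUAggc
Mir199a-2: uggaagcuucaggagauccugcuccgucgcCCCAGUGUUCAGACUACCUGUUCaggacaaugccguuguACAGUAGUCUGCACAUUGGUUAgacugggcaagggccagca
Mir199b: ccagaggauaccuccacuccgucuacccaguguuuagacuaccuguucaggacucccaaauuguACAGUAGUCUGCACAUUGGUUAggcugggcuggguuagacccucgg
Mir214: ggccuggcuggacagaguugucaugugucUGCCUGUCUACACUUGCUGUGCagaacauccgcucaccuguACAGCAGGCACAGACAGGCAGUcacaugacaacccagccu
Outside the arms the mir-199 hairpins differ. Of the 22-base windows of the hairpin, 36 of 49 in Mir199a-1, 77 of 89 in Mir199a-2 and 81 of 89 in Mir199b were found in no other hairpin, and the shared windows sat on or next to the mature strands. In Mir214 this held for 89 of 89 windows. The predicted folding energy (RNAfold) of the 110-base hairpins was -67.5 kcal/mol for Mir214, -42.5 for Mir199a-2 and -42.1 for Mir199b. The 70-base hairpin of Mir199a-1 folded at -28.9 kcal/mol.

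**Figure D1:**
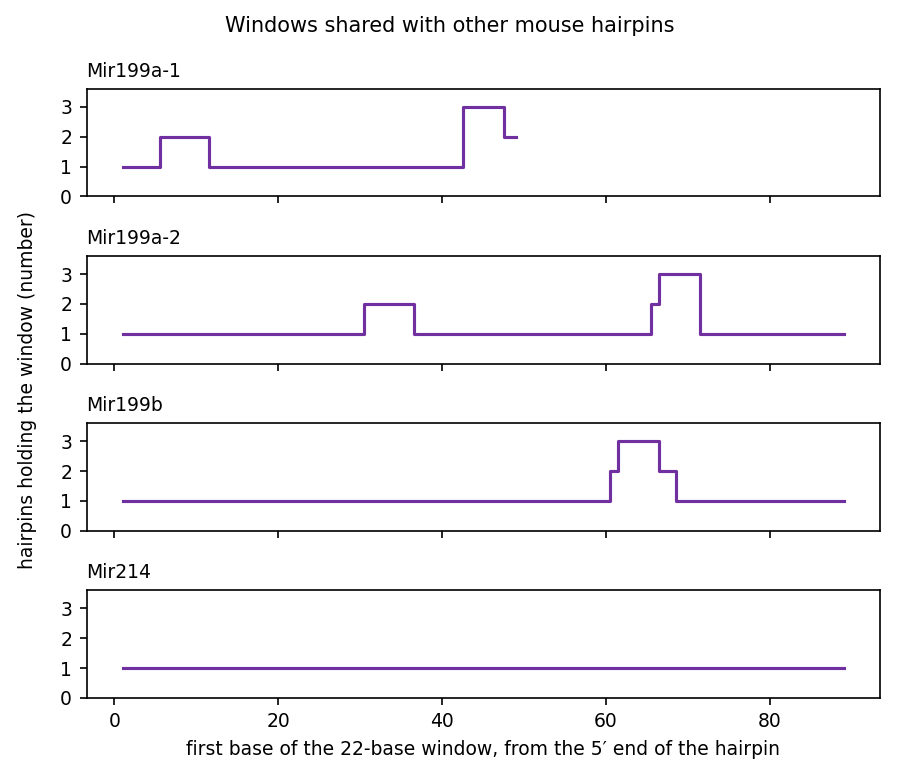
Number of hairpins in the RefSeq set that hold each 22-base window of the 4 hairpins, plotted against the window's first base from the 5′ end; a value of 1 means that no other hairpin holds it. The mir-199 hairpins reach 3 over the 3′ strand and those of Mir199a-1 and Mir199a-2 reach 2 over the 5′ strand, while Mir214 stays at 1 throughout.

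The 4 genes lie at 3 places in the genome, each within a dynamin gene and on the strand opposite to it (mm10, GENCODE M21). Mir199a-2 (ENSMUSG00000070126.1, chromosome 1, 162217814 to 162217923, plus strand) and Mir214 (ENSMUSG00000065516.1, chromosome 1, 162223368 to 162223477, plus strand) are separated by 5444 bases. Both lie in introns of Dnm3 and on the same strand as the antisense gene Dnm3os (162217623 to 162225550). Mir199a-2 falls in exon 1 of 3 annotated Dnm3os transcripts and Mir214 in exon 1 of 2, of 6 in all. Mir199a-1 (ENSMUSG00000065547.1, chromosome 9, 21496495 to 21496564, minus strand) lies in an intron of Dnm2. Mir199b (ENSMUSG00000092807.1, chromosome 2, 32318460 to 32318569, plus strand) lies in an intron of Dnm1. No hairpin overlapped an exon of its dynamin gene in any annotated transcript that spans it.

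**Figure D2:**
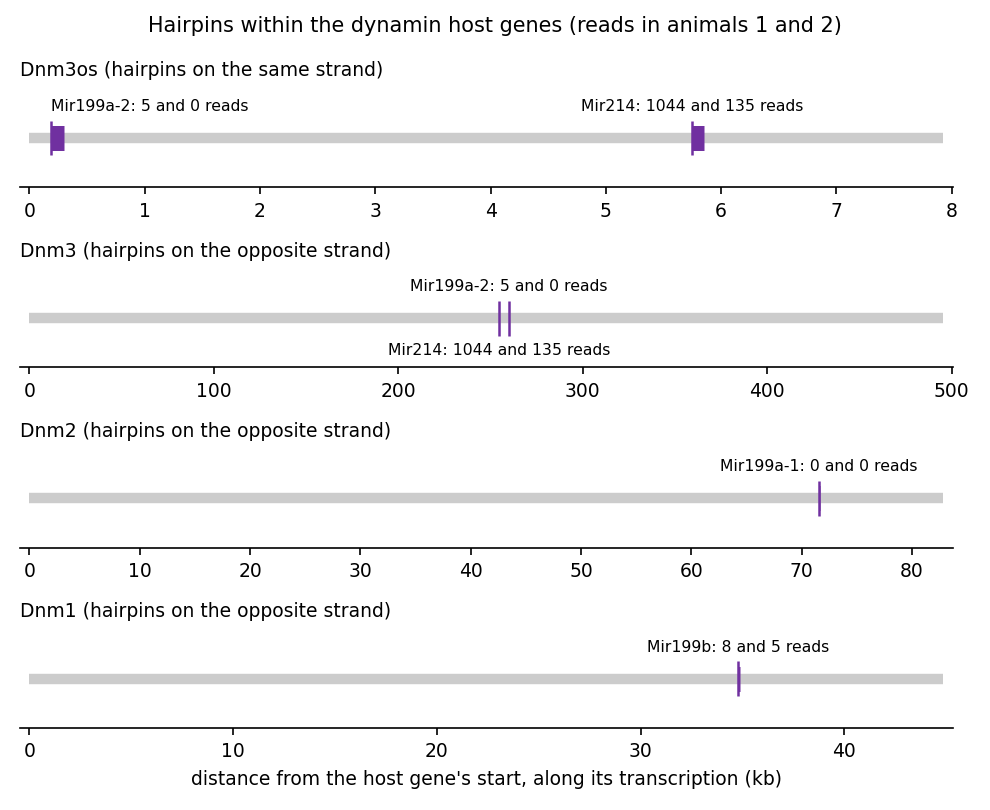
Place of each hairpin (purple) within its host gene (grey), in kb from the host's annotated start along its transcription, with own-strand reads in animals 1 and 2. Mir199a-2 and Mir214 share Dnm3os and hold 5 and 1044 reads in animal 1. Both listed strands of Mir199a-2 stand in other hairpins, so reads of them may be missing from its count.

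In all, 3806078 reads of animal 1 and 2602935 of animal 2 were assigned to a microRNA gene. Each table has a row, separate from the genes, whose name marks it as multi-mapping reads, at 42.7% and 40.4% of all reads. Reads in this row are outside the gene counts. The rule that placed a read there is not stated in the sources used here. A read of an identical arm fits several of the mir-199 hairpins. The counts of Mir199a-1, Mir199a-2 and Mir199b are therefore uncertain, and are too low if reads of these arms fell in that row. Unmapped reads made up 17.9% and 23.5%. The 2 tables differed by far more than sampling noise (chi-square of 198453 on 769 degrees of freedom), so they were taken as separate libraries. Levels are given in CPM, a gene's own-strand reads per 1000000 reads assigned to microRNA genes, with exact Clopper-Pearson 95% intervals that cover counting error only.

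Mir214, the gene of miR-214, was the only one of the 4 to reach the detection threshold of 10 CPM. It had 1044 reads in animal 1, or 274 CPM (95% interval 258 to 291), and 135 reads in animal 2, or 51.9 CPM (43.5 to 61.4). The mean was 163 CPM ± 157 (SD, n = 2), which joins unlike values, and the intervals of the animals did not overlap. Mir214 had the 173rd highest count of the 2202 genes in animal 1 and shared the 230th in animal 2. Over all genes at or above this threshold in each library, the median of the mean levels was 329 CPM, and Mir214 was below it in both animals.

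Mir199b, whose 5′ stretch carries the C10U difference shown above, was near the floor of the measurement. It had 8 reads in animal 1, or 2.10 CPM (95% interval 0.907 to 4.14), and 5 in animal 2, or 1.92 CPM (0.624 to 4.48), a mean of 2.01 CPM ± 0.128 (SD, n = 2). The nearest microRNA gene, Gm23363, lies 116 bases away on the same strand and had 1 and 0 reads. Mir199a-2, the Dnm3os partner of Mir214, had 5 reads in animal 1, or 1.31 CPM (0.427 to 3.07), and 0 in animal 2, a mean of 0.657 CPM ± 0.929 (SD, n = 2). Mir199a-1, the Dnm2 copy with both arms identical to those of Mir199a-2, had 0 reads in both animals. A count of 0 was given an upper limit of 3 counts, which is 0.788 CPM for animal 1 and 1.15 for animal 2. The exact 95% interval for 0 reads reaches 0.969 and 1.42 CPM. Both limits cover only reads assigned to the gene, and set none on reads of an arm that another hairpin shares.

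**Figure D3:**
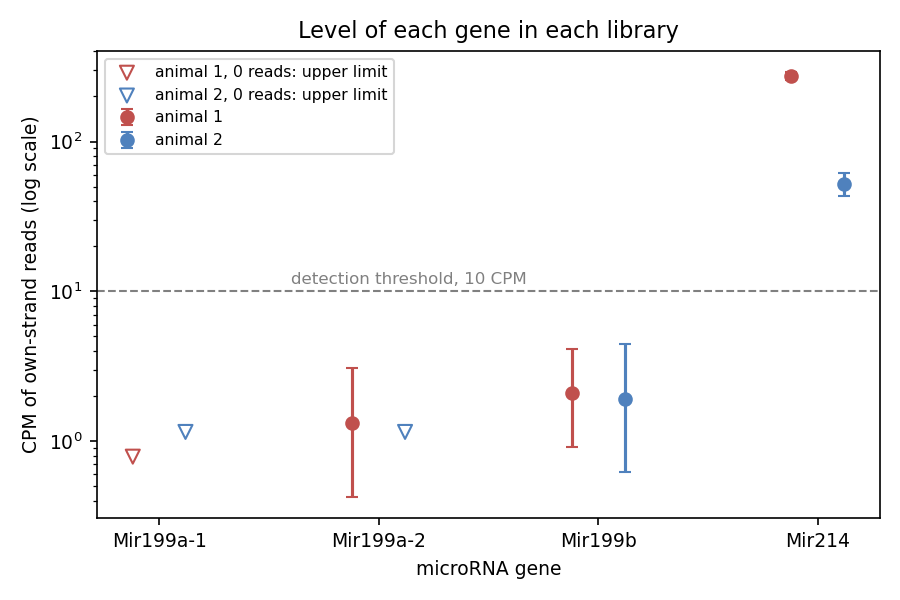
CPM of own-strand reads (log axis) for each gene in animal 1 (red) and animal 2 (blue). Bars are exact 95% intervals. Open triangles mark the upper limit of 3 counts set for a count of 0, which covers reads assigned to the gene only. Mir214, at 274 and 51.9 CPM, lies above the 10 CPM line in both animals, and every mir-199 value lies below it.

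The order of the counts was Mir214, Mir199b, Mir199a-2 and Mir199a-1 in animal 1. The intervals of Mir199b and Mir199a-2 overlapped there, so these neighbours did not differ beyond counting error. In animal 2 Mir199a-2 and Mir199a-1 were both at 0. Mir199a-2, Mir199b and Mir214 have hairpins of equal length, so their order per base is the same. The 4 genes together held 1057 reads (0.0278% of counted reads) in animal 1 and 140 (0.00538%) in animal 2. Of these, Mir214 held 98.8% (95% interval 97.9 to 99.3) in animal 1 and 96.4% (91.9 to 98.8) in animal 2. For each read of Mir199b there were 130.5 of Mir214 in animal 1 and 27.0 in animal 2. The order, shares and ratios hold only for reads assigned to a gene. Every listed arm of the mir-199 genes stands in another hairpin, so reads of these arms may be missing from the counts. RefSeq lists no 5′ strand for Mir199b, and its 5′ stretch, with C10U, stood in no other hairpin of the set.

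At 10 CPM in both libraries, 1 of the 4 genes was detected, against a background of 13.9% of all 2202 genes. A read in at least 1 library was found for 3 of the 4, against 35% of all genes, and Mir199a-1 was among the 65% with no read in either. Mir761, which shares the miR-214-3p seed, had 0 reads in both animals, so all counted reads of that seed family fell on Mir214, which is counted as a hairpin with both arms summed.

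Sharing of mature strands was then compared with the counts over all genes that could be matched. Of 954 genes with both a hairpin and a mature strand in the RefSeq set, 38 have every listed mature strand in another gene as well, and the 3 mir-199 genes are among them. Mir199b is there by its 3′ strand alone, as no 5′ strand is listed for it. Of these 38, 28 (73.7%) had no read in either library and 6 (15.8%) were detected. Of the other 916 genes, Mir214 included, 305 (33.3%) had no read and 257 (28.1%) were detected. These shares are descriptions, as the genes of a cluster or family are not independent. Whether sharing of strands lowered any count was not tested. Pairs of neighbouring genes on the same strand within 10 kb, with 1 gene of each kind, numbered 14, and 6 of them had reads. In the other pairs both genes had 0 reads, so a 0 there does not single out the gene with shared strands. In 4 of the 6, the pair of Mir214 and Mir199a-2 included, the gene with a strand of its own had more reads in both animals, and in 2, the pair of Gm23363 and Mir199b included, it had fewer. The pairs are not independent, as Mirlet7a-1 had fewer reads than Mirlet7d and more than Mirlet7f-1. The count of pairs is a description, and no cause was tested.

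Between the animals, Mir214 was higher in animal 1, from 1044 against 135 reads. After TMM scaling the difference was 4.58-fold (95% interval 3.84 to 5.54), a log2 ratio of 2.20 (1.94 to 2.47), and passed a two-sided exact binomial test of the 2 libraries (adjusted p = 6.1e-88, Benjamini-Hochberg over 531 genes with at least 10 counts). By that test 51.6% of the 531 genes differed, 26.9% being higher in animal 1 and 24.7% in animal 2, so passing it sets no gene apart. The size did place Mir214 near the edge: 18 tested genes had a higher log2 ratio, its absolute log2 ratio was larger than that of 95.1% of tested genes, and 4.14% of tested genes were at least 4-fold higher in animal 1. The test compares these 2 libraries and covers counting error only. Where a coefficient of variation of 0.4 between animals was assumed (edgeR's exact test), the adjusted p for Mir214 was 0.572 (unadjusted p = 0.0125) and 0 genes passed, with 28 at an unadjusted p under 0.05.

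Mir199b did not pass, at 8 and 5 reads (log2 ratio -0.12, 95% interval -1.87 to 1.88, adjusted p = 1 by the exact binomial test), and its log2 ratio turned to 0.080 with library totals only. An interval this wide neither shows nor sets aside a difference of several-fold. Set against each other on reads alone, the 1044 and 135 of Mir214 and the 8 and 5 of Mir199b gave an odds ratio of 4.82 (95% interval 1.22 to 17.0, Fisher's exact test, two-sided, p = 0.0123). This covers counting error only, treats reads as independent and does not show that the genes differ beyond the spread between animals. Mir199a-2, with 5 reads against 0, had too few counts for the main test, and without a minimum count it did not pass (adjusted p = 0.320, exact binomial test over 770 genes). Mir199a-1 could not be compared.

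**Figure D4:**
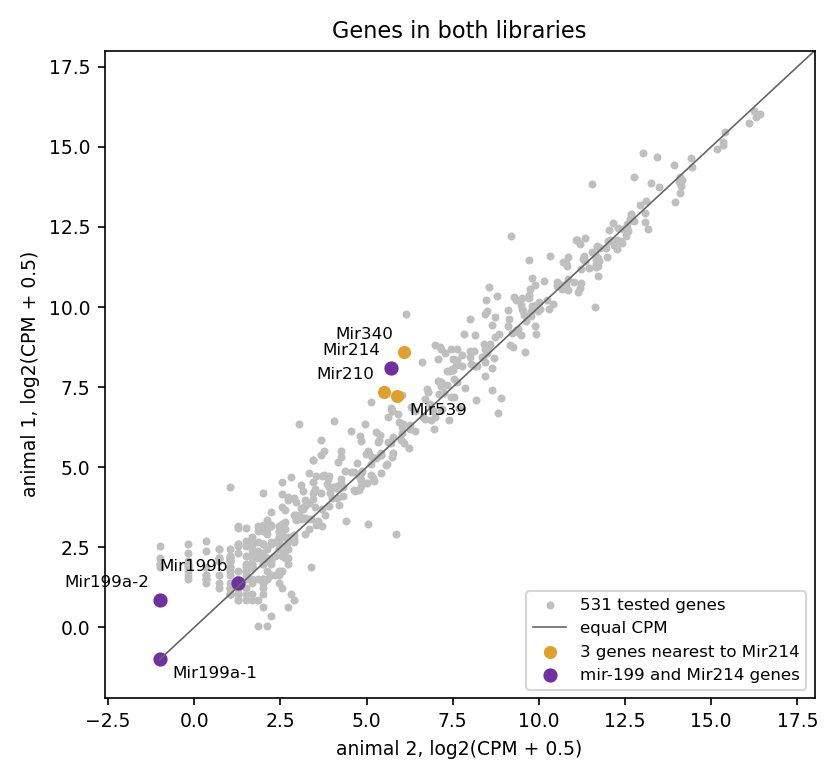
Level of each tested gene in animal 2 (x axis) and animal 1 (y axis) as log2(CPM + 0.5), with the line of equal CPM; the 4 genes are purple and the 3 genes nearest to Mir214 orange. Mir214 lies above the line, at 274 CPM in animal 1 and 51.9 in animal 2, and the mir-199 genes lie at the low end.

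The genes most like Mir214 were those nearest in the plane of the log2(CPM + 0.5) values of the 2 libraries, among 307 genes with at least 100 counts. With only 2 libraries, this likeness rests on a level and a single difference. Mir340 was nearest, at a distance of 0.62, with 1478 and 175 reads in animals 1 and 2. Mir210, known to be induced by low oxygen, followed at 0.77, with 623 and 118 reads. Mir539, of the imprinted Dlk1-Dio3 region, was at 0.90, with 566 and 152 reads. Their log2 ratios were 2.32, 1.64 and 1.14; since the choice of these genes used both libraries, this direction is no finding and was not tested.

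MicroRNA genes listed as markers of other mesenchymal and vessel cells were measured beside Mir214. Which cells of the cortex their reads came from was not tested. In bulk tissue, fewer cells of a type and less RNA per cell cannot be told apart. All 12 listed mesenchymal and fibroblast-enriched genes were tested, of which 2 passed as higher in animal 1 and 6 as higher in animal 2 (median log2 ratio -0.47, against 0.04 over all tested genes). Library totals moved that median over all genes to 0.25, a shift that adds Mir31 to the genes higher in animal 1. The list's summed level was 6282 CPM in animal 1 and 9573 in animal 2, the reverse of Mir214.

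Mir152, of the mir-148/152 family, was one of the 2 genes of that list higher in animal 1, with 170 and 34 reads (log2 ratio 1.55, 95% interval 1.03 to 2.15). Mir483, in the growth factor gene Igf2, was the other, with 1230 and 512 reads (0.51, 0.36 to 0.66). The 4 highest genes of the list by mean CPM all passed the exact binomial test with more in animal 2. Mir140, a microRNA of cartilage, had 3899 and 8167 reads (-1.82, -1.87 to -1.76), and Mir322 had 5861 and 6067 (-0.80, -0.85 to -0.75). Mir708 had 6725 and 5427 reads (-0.44, -0.49 to -0.39), and Mir21a, known from fibrosis, had 3702 and 3259 (-0.57, -0.64 to -0.50). Mir214 thus went with Mir152 and Mir483 and against the 6 of 12 genes that passed as higher in animal 2, while the others did not pass.

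The vessel wall lists moved in opposite directions. Mir126a, the endothelial microRNA, had 110045 and 21513 reads and was higher in animal 1, as Mir214 was (log2 ratio 1.60, 95% interval 1.58 to 1.62). Its partner Mir126b was at 0. Mural and smooth muscle genes were higher in animal 2: Mir143 had 11435 and 10535 reads (-0.63) and Mir145a 537 and 1241 (-1.96), both past the exact binomial test, while Mir145b was at 0. The summed level of the mural list was 3146 and 4524 CPM in animals 1 and 2, against 278 and 53.8 CPM for the 4 mir-199 and Mir214 genes. Of the 4 erythroid genes 2 were higher in animal 1 (Mir451a and Mir144) and 0 in animal 2, and the list summed to 79.6 and 48.0 CPM. Of 5 microglial and blood genes none passed as higher in animal 1, while 3 did for animal 2 (2 with library totals only), at 1593 and 1941 CPM summed.

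Cells lining or filling the ventricles and other brain cells gave further values. Of 5 ciliated cell genes, 3 were tested and all 3 were higher in animal 2, with sums of 241 and 745 CPM; Mir449b was at 0. Of 2 choroid plexus genes, Mir211 was higher in animal 2, while Mir204 had 3293 and 1956 reads and passed only with library totals, as higher in animal 1. Of 3 oligodendrocyte genes, Mir219a-1 was higher in animal 1, with 77 and 4 reads and a larger log2 ratio than Mir214 (3.35, 95% interval 2.10 to 5.43, against 2.20). Mir219a-2 and Mir338 were higher in animal 2 (-0.98 and -0.35), and the list summed to 1187 and 1640 CPM. Of 9 neuronal genes 7 were tested, and 1 passed as higher in animal 1 and 3 as higher in animal 2, at 40748 and 41568 CPM summed; library totals made this 3 and 3, and DESeq2 size factors 0 and 4. Of the marker genes that could be matched, Mir219a-2 had every listed mature strand in another gene, as the mir-199 genes did, while Mir219a-1, Mir128-1, Mir128-2, Mir138-1, Mir138-2, Mir218-1 and Mir218-2 shared 1 of 2, so their counts are uncertain too. The Mir124a genes of the neuronal list could not be matched, so sharing of their strands was not classed. Mir124a-1 had the most reads of them, 13 and 7. The part of any of these cell types in the difference of Mir214 was not tested.

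**Figure D5:**
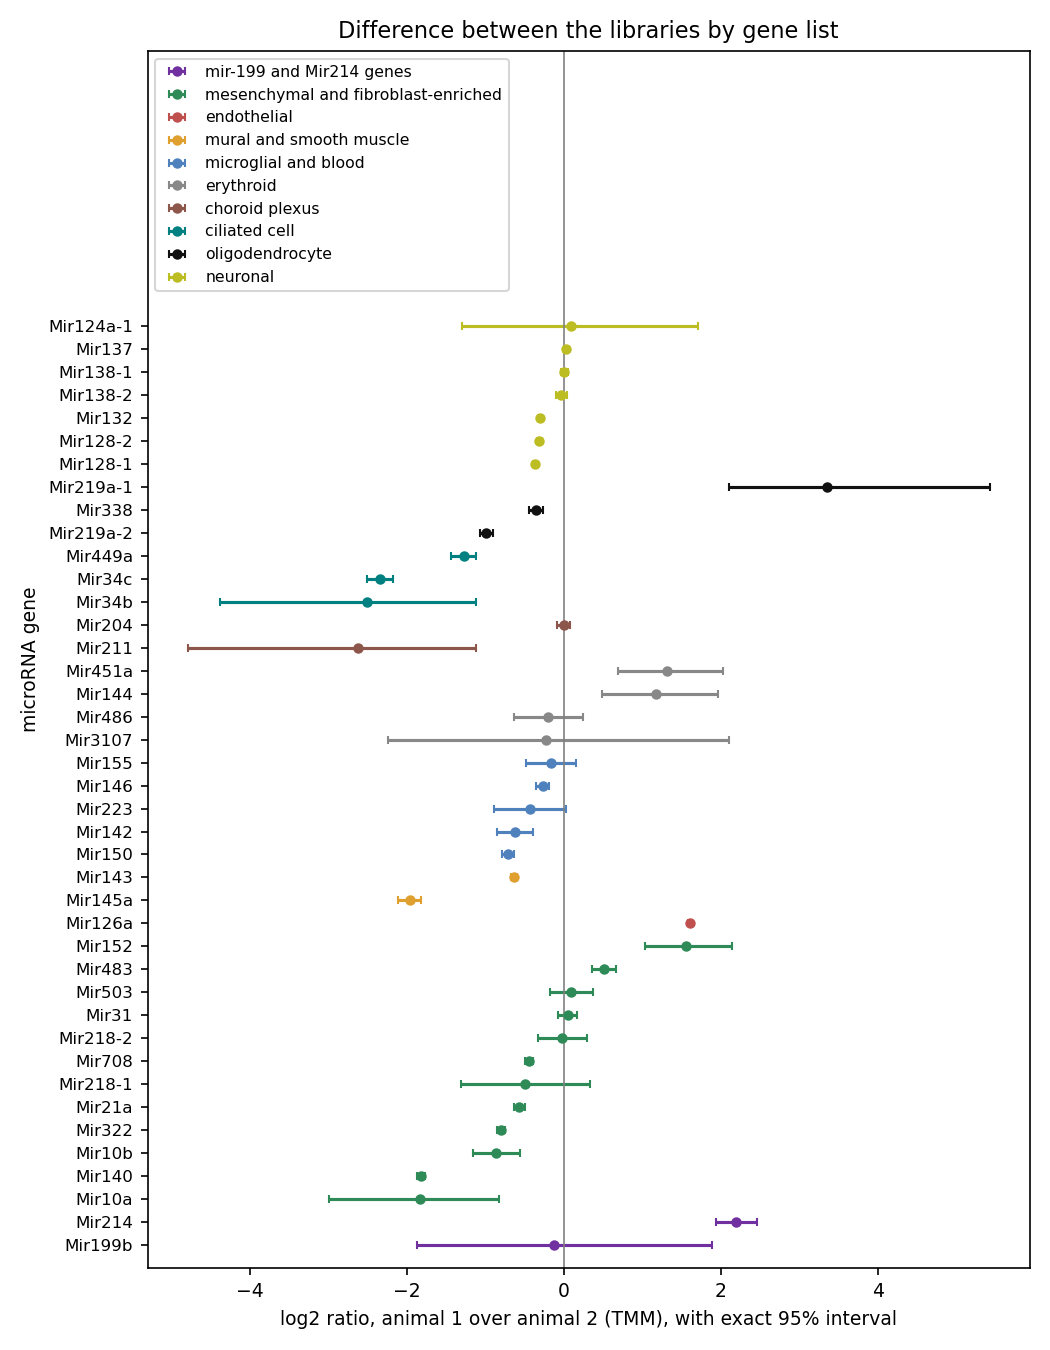
Log2 ratio of animal 1 over animal 2 after TMM, with exact 95% intervals, for each tested gene of the mir-199 and Mir214 genes and of every marker list; genes with under 10 counts are not drawn. Mir219a-1 (3.35, on 77 and 4 reads) lies farthest right, then Mir214 (2.20), Mir126a (1.60) and Mir152 (1.55), and Mir211 (-2.63), Mir34b (-2.50) and Mir34c (-2.34) lie farthest left.

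On the strand opposite the hairpins, which for Mir199a-2 and Mir214 is the strand of Dnm3, there was 1 read at Mir214 in animal 1, and 0 elsewhere in both animals. Counted without regard to strand, Mir214 had 1045 and 135 reads, and Mir199a-2, Mir199b and Mir199a-1 had the same reads as on their own strand.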

How the data were processed

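Total RNA was made into libraries of short RNA with a multiplexed microRNA protocol, per the labels. The authors deposited whole-number read counts per hairpin gene, 1 table per library, made on mm10 with GENCODE M21 per the notes beside each table; the aligner and counter were not given in the sources used here. The tables have no header, so the strand of each column was read from the values. The own-strand column was used, and the 4 rows that name no gene (66.5% and 69.6% of reads) were left out of library sizes. All 2202 gene IDs matched M21.

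CPM, exact Clopper-Pearson intervals, the exact binomial test (0.5 added for ratios, threshold 0.05) and overlaps were computed with Python 3.11.15 and scipy 1.17.1. TMM factors (1.07 and 0.932) came from edgeR 4.0.16 and size factors from DESeq2 1.42.0. Folding used RNAfold 2.7.2. The test was checked on simulated counts with counting noise only, which cannot show how it behaves under spread between animals. An SD of 2 animals rests on 1 difference.

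The genes named are the 4 chosen, the 3 nearest to Mir214, genes sharing a seed, and up to 4 per marker list. Gm23363, Mir31, Mir152, Mir483, Mir449b, the let-7 and Mir124a genes and the genes named for shared strands were singled out after their values were seen. The genes and lists were chosen with earlier results of these data known.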

Additional observations from a re-analysis of the deposited data

Results flagged for a closer look

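The row for multi-mapping reads holds data outside the gene counts, 4850682 reads in animal 1 and 3454278 in animal 2. The tables do not say which genes these reads fit, so the numbers say nothing of mir-199 by themselves, and how many carry a mir-199 strand was not tested.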

How the results depend on the processing

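Mir214 was higher in animal 1 under all 6 alternatives run (log2 ratio 2.14 to 2.40) and passed the test in 5 of them; with an assumed coefficient of variation of 0.4 the log2 ratio was 2.20, the adjusted p 0.572 by edgeR's exact test, and 0 genes differed between the libraries, against 274. Under the other 5 alternatives 238 to 280 genes differed. With library totals only, the Mir199b log2 ratio reversed to 0.080, and 67.5% of calls over all genes were higher in animal 1, against 52.2% with TMM. Scaled to all reads of the table, Mir199b stood at 0.645 CPM and Mir214 at 53.9; in the unstranded column Mir199b stood at 2.17. Of the 4 genes, 2 were detected at 1 CPM and 0 at 100 CPM. Leaving out either animal gave 51.9 to 274 CPM for Mir214, so animal 1 sets its mean, and 0 to 1.31 CPM for Mir199a-2. At a minimum of 100 counts Mir199b could not be tested. No paired analysis was possible because there is 1 group. With 8 and 5 reads of Mir199b and 5 and 0 of Mir199a-2, the few assigned reads limit what can be said of these genes. The strands that RefSeq lists for them, which other hairpins share, limit it too. For Mir199b this holds for the 3′ strand only, as its 5′ stretch has no listed strand and carries C10U.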
